A study of Mus musculus with 8 samples.

Results

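The genes described here are the constitutive subunits of the mouse proteasome with their assembly chaperones, activators and inhibitor. They were taken by name: every protein-coding gene whose symbol starts with Psma, Psmb, Psmc, Psmd, Psme, Psmf or Psmg and a number, other than the immunoproteasome subunits Psmb8, Psmb9 and Psmb10 and the activator subunits Psme1 and Psme2. This gave 46 of the 36528 genes listed. Sequenced were 4 libraries of BAP1 KO and 4 of WT primary mesothelial cells, taken from mouse omentum. BAP1 is a nuclear deubiquitinase that acts on histone H2A. Strain, age, the deleted exons and the way the knockout was made: not given in the sources used here. Labels do not say whether replicate libraries stem from different animals or cultures, and the p-values therefore rest on a spread that may be technical.

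The proteasome degrades proteins that carry ubiquitin chains. Its barrel-shaped core particle is built from outer alpha rings and inner beta rings, and some of the beta subunits hold the cutting sites. A regulatory particle caps the core: a base, whose ATPases unfold the substrate and thread it into the barrel, and a lid, which holds the deubiquitinase that removes the chain. The transcription factor NFE2L1 raises the genes of the subunits together when the proteasome is impaired.

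Total counts were 69.5 to 82.1 M in BAP1 KO libraries and 67.1 to 84.9 M in WT libraries. The labels state 30 M reads per library, and what accounts for the larger totals is not known here, so whether each count is 1 separate read is uncertain. Over all tested genes, 71.8% of the variance lay on the first principal component, along which BAP1 KO and WT libraries were apart. The targeted gene was lower but present: Bap1 stood at 54.0, 53.0, 52.0 and 53.7 CPM in BAP1 KO libraries, against 63.05, 62.6, 62.9 and 64.2 CPM in WT libraries, a log2 fold change of -0.25 ± 0.03 (edgeR adjusted p = 2.1e-09). Counts per gene cannot show whether these reads come from the deleted exons. Mesothelial markers were present, with Upk3b at 464 CPM in BAP1 KO and 462 CPM in WT, but Msln was low, at 3.06 CPM in BAP1 KO and 6.95 CPM in WT. CPM are a gene's counts relative to the library total, after scaling by TMM, a factor for composition. The background for the marker counts that follow is all 16929 genes tested, of which 29.0% were higher and 32.1% lower. With so many genes called, a count of calls does not by itself show a change in a cell type. Of 15 mesothelial markers, 5 were higher and 8 lower. Their sum was 1423 to 1436 CPM in BAP1 KO and 1443 to 1470 CPM in WT. The 12 macrophage markers (5 higher, 6 lower) summed to 14920 to 15440 CPM in BAP1 KO and 12570 to 12890 CPM in WT. Lyz2 carried that direction: the other 11 summed to 4201 to 4287 CPM in BAP1 KO and 4323 to 4350 CPM in WT. The 9 fibroblast markers (0 higher, 8 lower) summed to 16060 to 16640 CPM in BAP1 KO and 20110 to 21450 CPM in WT. The 6 smooth muscle markers (3 higher, 1 lower) summed to 12120 to 12310 CPM in BAP1 KO and 11900 to 12370 CPM in WT. Log2 fold changes were 0.33 for Myh11, 0.35 for Cnn1, 0.27 for Actg2 and -0.20 for Des. Acta2 and Tagln, which had the highest levels of the list, did not pass. Endothelial, adipocyte and lymphocyte markers summed to under 100 CPM in every library, and the defining lymphocyte genes Cd3e, Cd8a and Nkg7 had at most 8 counts. Of the 5 endothelial markers tested, 0 were higher and 4 lower. For adipocytes it was 3 higher and 1 lower of 4 tested, and for lymphocytes 1 and 1 of 4. The part of these cell types in the results on proteasome genes was not tested. In such a mixed sample, fewer cells of a type and less RNA per cell cannot be told apart.

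Shown first are promoters of 4 members, all of which were called higher in BAP1 KO. They are Psmb5, the catalytic subunit that proteasome inhibitor drugs bind, Psmd13 of the lid, and the assembly chaperones Psmg1 and Psmd10, which had the largest positive fold changes of the members. Each window runs from 250 bases before to 50 bases after the start of the gene in RefSeq on GRCm38.p6, 5′ to 3′ on the gene's strand. Psmb5 lies at chr14:54617946-54618245 (minus strand), Psmd13 at chr7:140882144-140882443 (plus), Psmg1 at chr16:95990911-95991210 (minus) and Psmd10 at chrX:140956662-140956961 (minus). Capitals mark matches to TGANNNNGC, the core of the antioxidant response element to which NFE2L1 binds, and to CCGGAAG, a site of ETS factors.
Psmb5: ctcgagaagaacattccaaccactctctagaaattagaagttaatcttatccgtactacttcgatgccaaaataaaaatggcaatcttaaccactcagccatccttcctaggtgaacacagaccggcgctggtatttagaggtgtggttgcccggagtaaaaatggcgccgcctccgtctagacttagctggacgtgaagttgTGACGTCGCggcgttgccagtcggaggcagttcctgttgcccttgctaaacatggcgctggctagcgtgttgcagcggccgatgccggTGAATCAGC
Psmd13: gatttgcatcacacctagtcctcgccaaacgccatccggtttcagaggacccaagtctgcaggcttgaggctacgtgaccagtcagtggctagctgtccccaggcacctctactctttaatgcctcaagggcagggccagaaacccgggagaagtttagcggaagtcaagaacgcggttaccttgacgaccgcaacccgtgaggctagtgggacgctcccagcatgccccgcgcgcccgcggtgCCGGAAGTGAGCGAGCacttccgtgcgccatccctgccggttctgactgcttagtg
Psmg1: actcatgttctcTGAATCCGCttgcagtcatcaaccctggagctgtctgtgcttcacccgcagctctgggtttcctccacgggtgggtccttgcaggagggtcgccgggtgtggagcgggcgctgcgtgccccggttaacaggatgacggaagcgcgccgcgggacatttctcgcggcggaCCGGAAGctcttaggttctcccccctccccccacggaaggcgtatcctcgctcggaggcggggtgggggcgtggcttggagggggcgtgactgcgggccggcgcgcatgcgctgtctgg
Psmd10: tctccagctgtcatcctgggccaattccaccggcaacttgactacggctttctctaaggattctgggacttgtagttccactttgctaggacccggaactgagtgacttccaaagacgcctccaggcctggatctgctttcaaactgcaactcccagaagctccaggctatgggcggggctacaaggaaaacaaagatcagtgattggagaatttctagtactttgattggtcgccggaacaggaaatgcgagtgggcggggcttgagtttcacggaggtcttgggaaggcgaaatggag

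Psmb5 held 2 matches to TGANNNNGC, starting 47 bases before and at base 42 after the start of the gene. Psmd13 and Psmg1 each held 1 match to either motif, which in Psmd13 stand side by side, and Psmd10 held none of either. Windows were found for 38 of the 46 members. TGANNNNGC, searched on both strands, occurred in 22 of the 38 (57.9%) and in 45.5% of the 17492 protein-coding genes with a window. CCGGAAG, on both strands, occurred in 16 of the 38 (42.1%) and in 12.9% of the protein-coding genes. CCAAT, on both strands, was found in 15 of the 38 (39.5%) and in 42.3% of the protein-coding genes.

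By class, the counts were as follows, with no test of a difference. Of 11 core genes with a window, 8 held TGANNNNGC and 1 held CCGGAAG (Psma6, in 1 of its 2 windows). Of 5 ATPase genes with a window, 2 held TGANNNNGC and 3 held CCGGAAG, and of 6 lid genes 3 held TGANNNNGC and 4 held CCGGAAG. Among members that were higher in BAP1 KO, 6 of 13 with a window held TGANNNNGC and 5 held CCGGAAG. Among those that did not pass the test, it was 13 and 11 of 20. Among lower members, it was 2 and 0 of 4. A match describes letters in the window and does not show a bound site.

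Constitutive proteasome genes differed little between the genotypes, and more were higher than lower in BAP1 KO. Of the 46 members, 45 had enough counts to be tested, and 16 were higher (35.6%), 5 were lower (11.1%) and 24 did not pass (edgeR, adjusted p below 0.05). Over all 16929 genes tested, 61.1% were called, 29.0% higher and 32.1% lower. The members' log2 fold changes ran from -0.19 to 0.38, none beyond 1.5-fold, with a median of 0.050 beside -0.005 over all tested genes. Their median absolute log2 fold change was 0.06, beside 0.18 over all tested genes. BAP1 KO and WT libraries did not overlap for 17 of the 45 members, and for 53.8% of all tested genes.

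**Figure D1:**
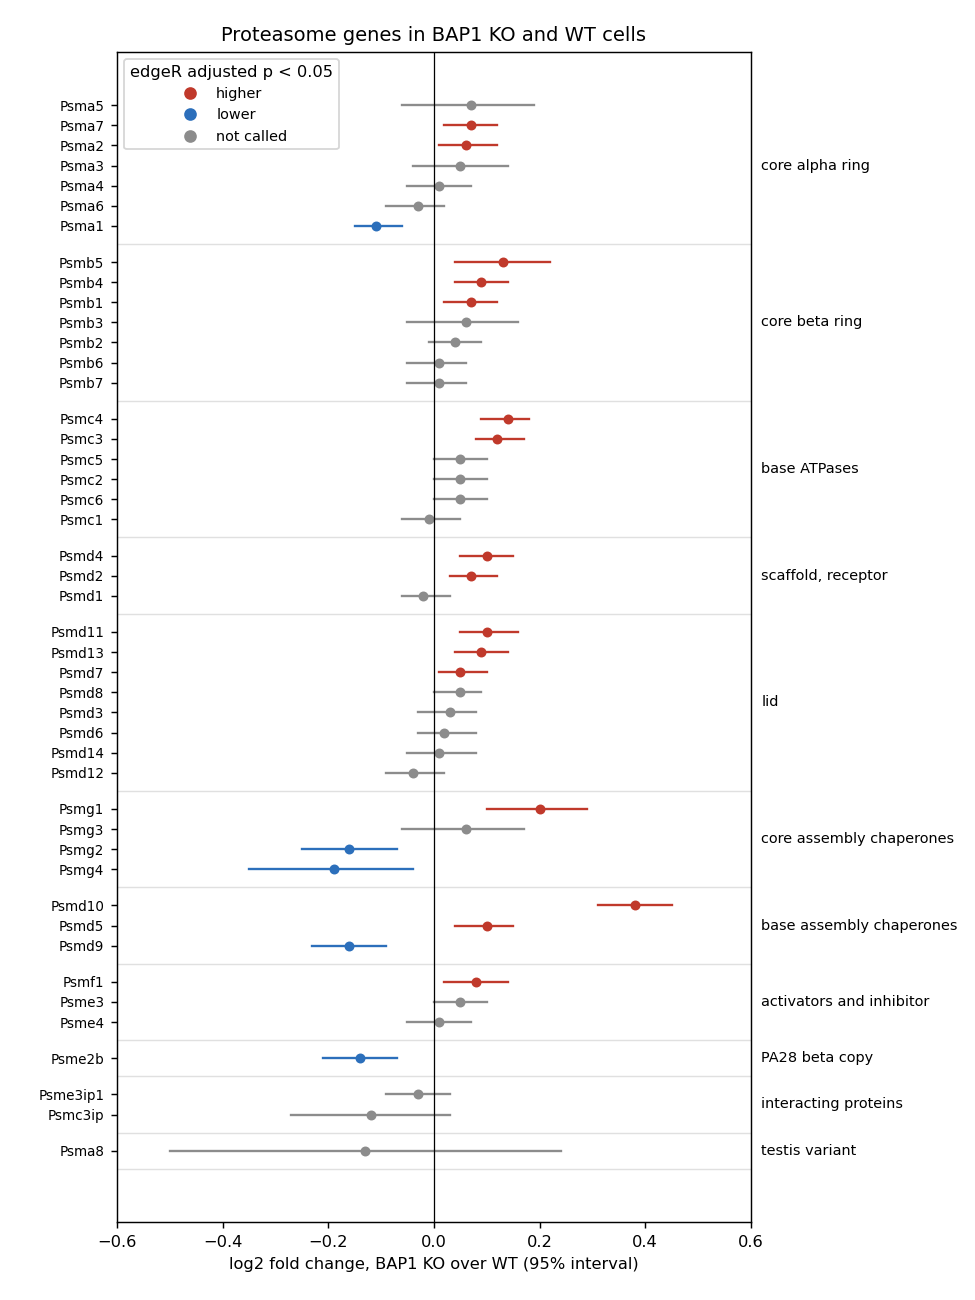
Log2 fold change of the 45 tested proteasome genes, BAP1 KO over WT, with the 95% interval (x axis), grouped by role down the page. Red points are higher and blue points lower by edgeR's adjusted p, grey points were not called; Psmd10 stands apart at 0.38, and the other members lie between -0.19 and 0.20.

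These small differences moved with a joint correction for GC content and gene length, whose separate parts were not tested. With each library's trend in GC content and gene length removed, 26 members were higher and 5 lower, beside 34.4% higher and 35.9% lower among the 14411 genes with both values. Calls were gained by 12 members (Psma3, Psma4, Psmb7, Psmc2, Psmc5, Psmc6, Psmd1, Psmd6, Psmd8, Psmd14, Psme3 and Psme4) and lost by 2 (Psmb5 and Psmd7). Among members that kept their call, the log2 fold change moved by over 1.5 times for Psma1 (-0.05), Psmb1 (0.11), Psmd2 (0.12), Psmd4 (0.06), Psmd5 (0.17), Psmd11 (0.16), Psmf1 (0.13) and Psmg4 (-0.35), given as corrected values. Where the mean deviation of each library was removed as well, 35 members were higher and 1 lower. The share of all called genes that were higher was then 62.0%, beside 47.5% without the correction, and the median of all genes moved to 0.072. The members' transcripts were short, with a median length of 0.44 of the median tested gene, and had a median GC content of 49.7%, against 51.0%. Over all tested genes the median log2 fold change was -0.052 in the fifth with the lowest GC content and 0.063 in that with the highest.

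Together the members took 0.422 to 0.432% of all counts in BAP1 KO libraries and 0.414 to 0.426% in WT libraries. Their summed level was 4310, 4340, 4249 and 4281 CPM in BAP1 KO libraries, against 4138, 4135, 4219 and 4179 CPM in WT libraries. On this TMM scale the lowest BAP1 KO library lay above the highest WT library. As shares of all counts the genotypes overlapped, so that separation rests on the TMM factors. Between libraries of a genotype a member varied by a median of 2.45% in BAP1 KO and 2.67% in WT (coefficient of variation, n = 4 each).

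The core rings gave 5 higher, 1 lower and 8 that did not pass among 14 subunits. Their median log2 fold change was 0.053, and their summed level 1209 to 1258 CPM in BAP1 KO against 1187 to 1238 CPM in WT, with overlap. Without 1 library the number of higher core subunits ran from 2 to 5: it was 2 without WT replicate 1 and 3 without WT replicate 2 or BAP1 KO replicate 2. With library totals alone it was also 3.

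In the alpha rings, which gate the barrel, 2 subunits were higher and 1 was lower. Psma7 stood at 127, 127, 122 and 125 CPM in BAP1 KO libraries, against 115, 117, 123 and 121 CPM in WT libraries. Psma2 stood at 97.6, 99.6, 93.1 and 97.2 CPM in BAP1 KO libraries, against 90.0, 90.6, 95.9 and 93.9 CPM in WT libraries. Both pairs of groups overlapped, with log2 fold changes of 0.07 ± 0.02 (edgeR adjusted p = 0.013) and 0.06 ± 0.03 (edgeR adjusted p = 0.037). The call for Psma7 was lost without WT replicate 1. That for Psma2 was lost under 8 alternatives, among them upper quartile factors and 5 single libraries left out.

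Psma1 (chromosome 7, 114264550 to 114276116) was the one core subunit that fell. It stood at 101, 104, 101 and 101 CPM in BAP1 KO libraries, against 109.5, 111, 112 and 106 CPM in WT libraries. All BAP1 KO libraries lay below all WT libraries, and the log2 fold change came to -0.11 ± 0.02 (edgeR adjusted p = 0.00038). The value was 0.03 when GC and length trends were removed together with library means. Psma6 (-0.03), Psma4 (0.01), Psma3 (0.05) and Psma5 (0.07), given as log2 fold changes, did not pass. For Psma4 the 95% interval of the log2 fold change was -0.05 to 0.07. Exons of Psma4 and Psma5 overlap those of a gene on the opposite strand, which a kit that does not mark strand cannot separate.

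In the beta rings 3 of 7 subunits were higher, and log2 fold changes ran from 0.01 to 0.13. Psmb3, Psmb6 and Psmb7 had values below 0 under at least 1 alternative, the lowest at -0.03. The number lower was 0 by edgeR, by limma-voom and by DESeq2, and also 0 at an unadjusted p under 0.05. Psmb5, the subunit with chymotrypsin-like activity (chromosome 14, 54614120 to 54617995), stood at 19.8, 19.2, 18.4 and 18.8 CPM in BAP1 KO libraries, against 15.8, 17.9, 17.1 and 18.7 CPM in WT libraries. The groups overlapped, and the log2 fold change came to 0.13 ± 0.05 (edgeR adjusted p = 0.015). That call was lost with GC and length trends removed, where the log2 fold change was 0.00, and without WT replicate 1.

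Psmb6, the subunit with caspase-like activity, stood at 118, 113, 113 and 116 CPM in BAP1 KO libraries, against 114, 112, 113 and 119.9 CPM in WT libraries. Psmb7, with trypsin-like activity, stood at 94.5, 97.7, 92.3 and 90.6 CPM in BAP1 KO libraries, against 91.5, 92.7, 97.1 and 91.4 CPM in WT libraries. Neither passed, and the 95% intervals of their log2 fold changes were -0.05 to 0.06 and -0.05 to 0.06. Exons of Psmb7 overlap those of Nek6 on the opposite strand over 405 bp.

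Psmb4, a structural subunit of the ring, stood at 169.6, 167, 163 and 165 CPM in BAP1 KO libraries, against 153, 154, 158 and 161 CPM in WT libraries. The groups did not overlap, and the log2 fold change came to 0.09 ± 0.02 (edgeR adjusted p = 0.0014). Psmb1 was higher by 0.07 ± 0.02 on the log2 scale (edgeR adjusted p = 0.017), a call lost with library totals alone and without BAP1 KO replicate 2 or WT replicate 2. Psmb3 (0.06) and Psmb2 (0.04) did not pass.

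Of the 6 ATPases of the base, 2 were higher, 0 lower and 4 did not pass in edgeR. The number lower was likewise 0 in limma-voom and in DESeq2, and 0 at an unadjusted p under 0.05. Their median log2 fold change was 0.050. The summed level was 794.9, 791.9, 777.5 and 783.2 CPM in BAP1 KO libraries, against 744, 735.4, 755.1 and 747.8 CPM in WT libraries, without overlap. With RLE factors, with DESeq2 or with GC and length trends removed, 5 of the 6 were higher, and in the last case the median was 0.112.

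Psmc4 (chromosome 7, 28041702 to 28050092) stood at 148, 146, 147 and 149 CPM in BAP1 KO libraries, against 134, 132, 134 and 136 CPM in WT libraries. Psmc3 (chromosome 2, 91054016 to 91059438) stood at 197, 190.2, 190.1 and 194 CPM in BAP1 KO libraries, against 173, 175, 179 and 180.3 CPM in WT libraries. In both genes every BAP1 KO library lay above every WT library. The log2 fold changes were 0.14 ± 0.02 (edgeR adjusted p = 3.2e-06) and 0.12 ± 0.02 (edgeR adjusted p = 1.7e-05), and both calls held in all alternatives run. Exons of Psmc3 overlap those of Slc39a13 on the opposite strand over 215 bp.

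Psmc2, Psmc5 and Psmc6 had log2 fold changes of 0.05 ± 0.02, 0.05 ± 0.02 and 0.05 ± 0.03 and did not pass, with adjusted p of 0.081, 0.087 and 0.092 by edgeR. These are the 3 ATPases that passed with RLE factors, DESeq2 or the GC and length correction. Psmc1, at -0.01 ± 0.03, did not pass, and its 95% interval was -0.06 to 0.05.

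Among the 3 subunits that join the ATPases in the base, the scaffold Psmd2 and the ubiquitin receptor Psmd4 were higher. Psmd4 stood at 108, 106, 106 and 107 CPM in BAP1 KO libraries, against 97.8, 99.5, 98.7 and 101 CPM in WT libraries. Psmd2, where shuttle proteins dock, stood at 267, 269, 264 and 267 CPM in BAP1 KO libraries, against 250.2, 254.7, 252 and 257 CPM in WT libraries. Neither gene overlapped between the genotypes, and the log2 fold changes were 0.10 ± 0.02 (edgeR adjusted p = 0.00037) and 0.07 ± 0.02 (edgeR adjusted p = 0.0023). The other scaffold, Psmd1, was at -0.02 ± 0.02 and did not pass, but was called higher, at 0.07, with GC and length trends removed (edgeR adjusted p = 0.00031). Exons of Psmd1 overlap those of Htr2b and Gm21972.

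The lid gave 3 higher, 0 lower and 5 that did not pass among 8 subunits in edgeR. As among the ATPases, limma-voom and DESeq2 gave 0 lower, and so did an unadjusted p under 0.05. Its median log2 fold change was 0.035, and 0.062 with GC and length trends removed, when 5 were higher. The summed level was 1138, 1143, 1124 and 1136 CPM in BAP1 KO libraries, against 1093, 1098, 1115 and 1112 CPM in WT libraries, without overlap. That separation rests on the TMM factors: by library totals alone, BAP1 KO replicate 3 lay below WT replicate 3.

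Psmd11, a curved subunit that braces the lid against the core, stood at 55.5, 54.8, 55.8 and 55.0 CPM in BAP1 KO libraries, against 50.9, 51.6, 52.4 and 50.8 CPM in WT libraries. Psmd13 stood at 117, 117, 118 and 116 CPM in BAP1 KO libraries, against 109.9, 109, 106 and 114 CPM in WT libraries. In both the genotypes did not overlap, with log2 fold changes of 0.10 ± 0.03 (edgeR adjusted p = 0.0015) and 0.09 ± 0.02 (edgeR adjusted p = 0.0014). Exons of Psmd13 overlap those of Sirt3 on the opposite strand over 342 bp.

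Psmd14, the deubiquitinase of the lid, stood at 90.4, 97.8, 95.5 and 89.5 CPM in BAP1 KO libraries, against 95.02, 89.3, 97.3 and 89.0 CPM in WT libraries. The libraries of both genotypes were spread over the same range, and the 95% interval of the log2 fold change was -0.05 to 0.08. With GC and length trends removed, Psmd14 was called higher, at 0.08 (edgeR adjusted p = 0.0023). Psmd7, its inactive partner, was higher by 0.05 ± 0.02 (edgeR adjusted p = 0.047), a call lost under 10 alternatives, among them upper quartile factors and the GC and length correction, where the log2 fold change was 0.01. It was also lost without any 1 of WT replicates 2, 3 and 4 or BAP1 KO replicates 1, 2 and 3. Psmd8 (0.05), Psmd3 (0.03), Psmd6 (0.02) and Psmd12 (-0.04) did not pass.

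Set side by side, the core, ATPase and lid medians were 0.053, 0.050 and 0.035, and 5 of 14, 2 of 6 and 3 of 8 subunits were higher. All 3 shares lie near the 29.0% of all tested genes that were higher. With GC and length trends removed the medians were 0.054, 0.112 and 0.062, and 7 of 14, 5 of 6 and 5 of 8 subunits were higher, beside 34.4% of the genes in that fit. A difference between the 3 groups was not tested.

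**Figure D2:**
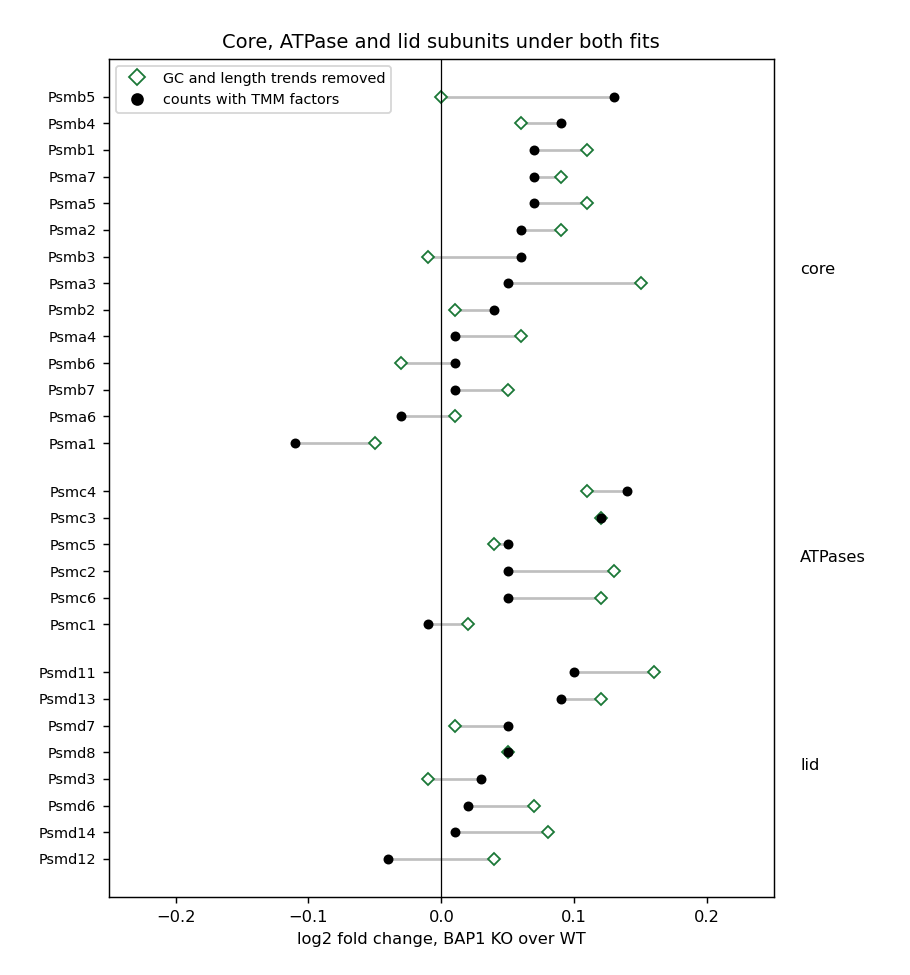
Log2 fold change of the 14 core, 6 ATPase and 8 lid subunits, BAP1 KO over WT (x axis), with GC and length trends removed (open diamonds) and without the correction (black points). Psmb5 moves to 0.00 from 0.13 and Psma3 to 0.15 from 0.05, while Psmc3 stays at 0.12.

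The assembly chaperones held the extremes of the set in both directions. The base chaperones bind single ATPases before they join the ring, and the core chaperones pair up to help form the alpha ring. Psmd10 (chromosome X, 140948425 to 140956711), also called gankyrin, binds Psmc4. It stood at 40.4, 43.0, 40.9 and 39.0 CPM in BAP1 KO libraries, against 32.7, 31.4, 30.8 and 30.98 CPM in WT libraries. Every BAP1 KO library lay above every WT library, with a log2 fold change of 0.38 ± 0.03 (edgeR adjusted p = 4e-11), or a level 29.9% above WT. It was the largest change of any member, and the call held in all alternatives run.

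Psmd5, which binds Psmc2, stood at 65.4, 68.4, 67.6 and 68.8 CPM in BAP1 KO libraries, against 63.6, 63.9, 64.2 and 61.2 CPM in WT libraries. Psmd9 (chromosome 5, 123228190 to 123250126), which binds Psmc3, stood at 29.6, 29.4, 28.5 and 30.4 CPM in BAP1 KO libraries, against 32.9, 32.4, 32.5 and 34.1 CPM in WT libraries. Neither overlapped, but they moved in opposite directions, with log2 fold changes of 0.10 ± 0.03 (edgeR adjusted p = 0.0031) and -0.16 ± 0.03 (edgeR adjusted p = 0.0001). The call for Psmd9 was lost, at -0.05, with library means removed beside GC and length trends. Its exons overlap those of Gm26745 on the opposite strand over 1849 bp, so its counts are uncertain.

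Psmg1 (chromosome 16, 95979933 to 95990960) stood at 19.1, 19.1, 16.8 and 17.9 CPM in BAP1 KO libraries, against 15.4, 16.1, 15.9 and 16.2 CPM in WT libraries. Psmg2, its partner in a heterodimer, stood at 13.8, 14.7, 14.6 and 14.2 CPM in BAP1 KO libraries, against 15.8, 16.1, 16.6 and 15.6 CPM in WT libraries. The partners moved apart without overlap between genotypes, with log2 fold changes of 0.20 ± 0.04 (edgeR adjusted p = 0.00034) and -0.16 ± 0.04 (edgeR adjusted p = 0.0016).

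Of the second pair, Psmg4 was lower. Psmg4 stood at 7.34, 5.92, 5.82 and 6.51 CPM in BAP1 KO libraries, against 6.22, 7.86, 7.65 and 7.33 CPM in WT libraries. The groups overlapped, and the log2 fold change of -0.19 ± 0.07 (edgeR adjusted p = 0.026) lost its call without BAP1 KO replicate 2 or 3 or WT replicate 2 or 3. Psmg3, at 0.06 ± 0.05, did not pass, and shares exon sequence with Gm26938 on the same strand over 280 bp. The call for Psmg2 was lost, at -0.04, with library means removed beside GC and length trends.

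**Figure D3:**
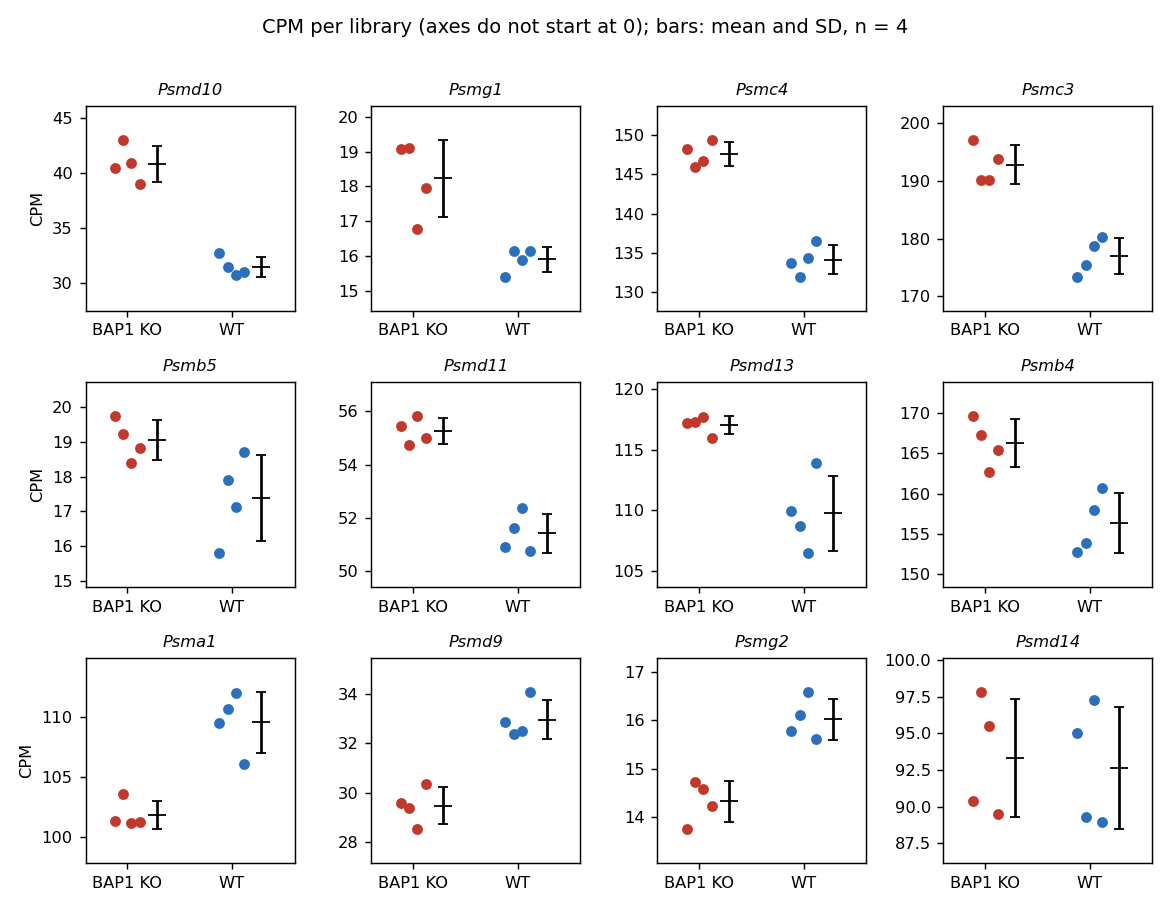
CPM of 12 proteasome genes (y axes, which do not start at 0) in each of the 4 BAP1 KO libraries (red) and 4 WT libraries (blue), with the mean and SD in black. Psmd10 libraries lie at 39.0 to 43.0 in BAP1 KO and 30.8 to 32.7 in WT, while the Psmd14 libraries of the genotypes share 1 range.

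Other regulators of the particle changed little. Psmf1, an inhibitor of the core, stood at 44.2, 43.7, 42.5 and 44.2 CPM in BAP1 KO libraries, against 41.4, 41.9, 41.5 and 40.4 CPM in WT libraries. The groups did not overlap, with a log2 fold change of 0.08 ± 0.03 (edgeR adjusted p = 0.021), and the call was lost with library totals alone and without BAP1 KO replicate 1 or WT replicate 4. The nuclear activator Psme3 was at 0.05 ± 0.02 (edgeR adjusted p = 0.066) and the large activator Psme4 at 0.01 ± 0.03, and neither passed. Psme3 passed with RLE factors, DESeq2 and the GC and length correction, and without BAP1 KO replicate 4 or WT replicate 2.

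Several names match the rule without being constitutive subunits. Psme2b, a protein-coding copy of the activator subunit Psme2, stood at 38.0, 36.2, 35.8 and 36.3 CPM in BAP1 KO libraries, against 42.2, 38.4, 39.7 and 40.9 CPM in WT libraries. It fell without overlap, with a log2 fold change of -0.14 ± 0.03 (edgeR adjusted p = 0.00058), but 69.3% of its 50-base stretches occur in transcripts of other genes, Psme2 first. That call was lost, at -0.06, with library means removed beside GC and length trends. Psmc3ip, a meiotic recombination factor, and Psme3ip1, which binds Psme3, were at -0.12 ± 0.07 and -0.03 ± 0.03 and did not pass.

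The variants restricted to other tissues were near silent. Psma8, the alpha subunit of the testis, had 54, 64, 64 and 40 counts in BAP1 KO libraries, against 51, 91, 44 and 58 counts in WT libraries, with a 95% interval of -0.50 to 0.24 for its log2 fold change. Psmb11, the beta subunit of the thymus, had 0, 0, 3 and 3 counts in BAP1 KO libraries, against 0, 1, 1 and 1 counts in WT libraries. It was the 1 member not tested, and no library was above the 3 counts that a count of 0 allows, counting error only.

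Levels per length were far from even, although the particle holds most of these subunits in equal number. Among the core subunits the mean in WT ran from 7.16 nRPKM for Psma5 to 163 nRPKM for Psmb4, a ratio of 22.7. nRPKM are RPKM, which divide by gene length and depth, adjusted by the authors with a size factor. ATPases ran from 47.9 nRPKM (Psmc1) to 107 nRPKM (Psmc3), a ratio of 2.23, and the lid from 29.1 nRPKM (Psmd11) to 246 nRPKM (Psmd8), a ratio of 8.44. Median levels of core, ATPase and lid subunits were 85.2, 84.7 and 70.4 nRPKM in BAP1 KO and 87.2, 81.2 and 67.0 nRPKM in WT.

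The 4 lowest core subunits all share sequence with other transcripts, mostly of processed pseudogenes. The deposited counts hold reads that align uniquely, so reads from stretches found elsewhere can be lost. In protein-coding transcripts of Psma5, Psmb3 and Psmb5, 55.4%, 55.8% and 54.1% of 50-base stretches also occur in a transcript of another gene, and for Psma3 it is 22.0%. Their WT levels were 7.16, 15.1, 19.7 and 7.19 nRPKM. Psmb7 and Psma4, at 28.1% and 23.7%, stood higher, at 88.3 and 48.6 nRPKM. For Psmb7 the sharing gene is Nek6, whose exons overlap it on the opposite strand at the same place. Reads from such an overlap still align uniquely, so the share of Psmb7 does not measure reads lost to copies elsewhere. The part of lost reads in these levels was not tested, and levels of these 6 genes are uncertain. Outside the core, the share was 17.6% for Psmc1, 16.7% for Psmd11 and 25.6% for Psmd2, whose levels are uncertain too. Psmc1 and Psmd11 set the low ends of the ATPase and lid ranges, so those ratios carry the same limit.

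**Figure D4:**
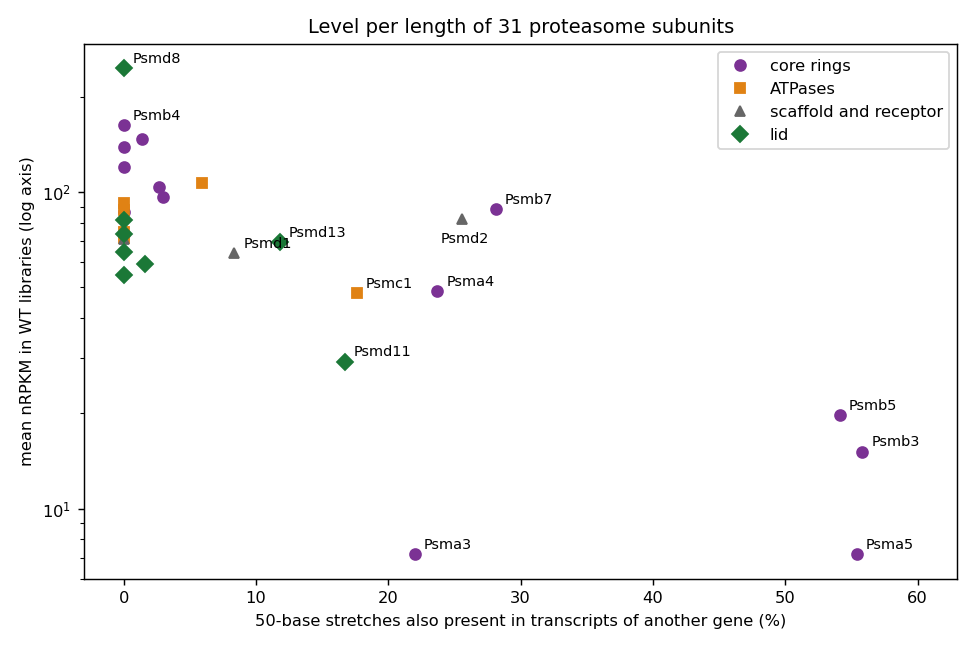
Mean nRPKM in WT libraries on a log axis (y) against the percentage of a gene's 50-base stretches found in transcripts of another gene (x), for the 31 subunits of the core, base and lid. Psma5, Psmb3 and Psmb5 lie at the right, between 7.16 and 19.7 nRPKM, and Psmd8 is highest at 246 nRPKM. Stretches shared with a gene that overlaps at the same place, as Nek6 does Psmb7, are included.

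In contrast to the constitutive subunits, 4 of the 5 genes of the immunoproteasome and its activator fell, beside 32.1% lower over all tested genes. Of these, 3 encode catalytic subunits that interferon induces and that replace constitutive ones in newly built cores, and Psme1 and Psme2 form the activator PA28. Psmb8 stood at 32.4, 30.7, 28.9 and 29.9 CPM in BAP1 KO libraries, against 46.5, 46.8, 46.4 and 49.8 CPM in WT libraries. Psme1 stood at 48.7, 49.5, 46.3 and 44.9 CPM in BAP1 KO libraries, against 59.0, 57.4, 59.1 and 59.1 CPM in WT libraries. In both the genotypes did not overlap, and the log2 fold changes were -0.64 ± 0.03 (edgeR adjusted p = 3.3e-16) and -0.31 ± 0.03 (edgeR adjusted p = 3.7e-10).

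Psmb9 and Psme2 were lower by log2 fold changes of -0.30 ± 0.05 and -0.25 ± 0.05 (edgeR adjusted p = 1.2e-05 and 6.9e-05). For Psme2, 54.9% of 50-base stretches occur in transcripts of other genes, Psme2b first, so its counts are uncertain. Psmb10 stood at 42.5, 41.5, 41.3 and 43.4 CPM in BAP1 KO libraries, against 38.2, 37.7, 40.6 and 42.4 CPM in WT libraries. These groups overlapped, and the log2 fold change of 0.09 ± 0.03 (edgeR adjusted p = 0.032) was lost under several alternatives and was -0.01 with GC and length trends removed. The median log2 fold change of the 5 was -0.300, beside -0.005 over all tested genes. Exons of Psmb9 overlap those of Tap1 on the opposite strand over 212 bp. Macrophages express these genes too, and 6 of the 12 macrophage markers were lower and 5 higher, with Lyz2 at 11030.0 CPM in BAP1 KO and 8388 CPM in WT. Whether they have a part in the fall was not tested.

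RNA of subunits that replace each other was compared as a ratio of levels per length in each library. Such a ratio does not show which subunits the built cores hold. Psmb8 over Psmb5 was 1.07, 1.05, 1.03 and 1.04 in BAP1 KO libraries, against 1.92, 1.71, 1.77 and 1.74 in WT libraries. For Psmb9 over Psmb6 the ratio was 0.0530, 0.0564, 0.0520 and 0.0529 in BAP1 KO libraries, against 0.0616, 0.0666, 0.0717 and 0.0649 in WT libraries. Both ratios were lower in BAP1 KO without overlap (exact permutation test, two-sided, p = 0.029, the smallest that 4 against 4 can give, and 0.043 adjusted over the 3 ratios). Psmb10 over Psmb7 was 0.302 ± 0.015 in BAP1 KO and 0.286 ± 0.017 in WT (SD, n = 4 each; exact permutation p = 0.23). The sequence that Psmb5 shares with other transcripts makes the absolute value of the first ratio uncertain. The ratios carry no GC and length correction, under which the log2 fold change of Psmb5 was 0.00.

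**Figure D5:**
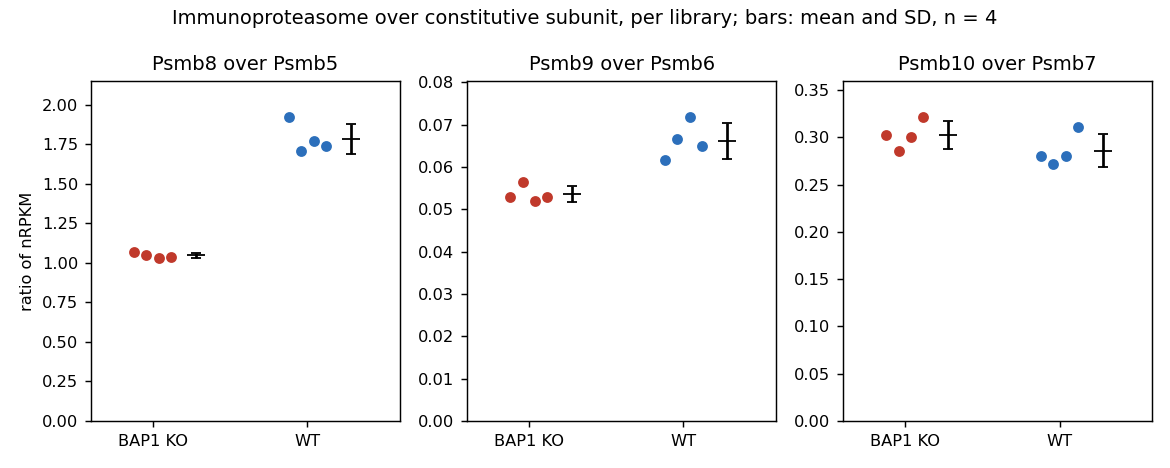
Ratio of nRPKM of an immunoproteasome subunit over the constitutive subunit it replaces (y axes from 0), in each of the 4 BAP1 KO libraries (red) and 4 WT libraries (blue), with the mean and SD in black. Psmb8 over Psmb5 averages 1.05 in BAP1 KO and 1.79 in WT, and Psmb10 over Psmb7 overlaps.

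Among 10 genes of the NFE2L1 pathway, 4 were higher and 3 lower, and 3 did not pass. Over all tested genes, 29.0% were higher and 32.1% lower, so the pathway's shares of 40% and 30% lie near the background. Their median log2 fold change was 0.039. Nfe2l1, the factor itself, stood at 439, 436, 439.5 and 441 CPM in BAP1 KO libraries, against 344, 342, 337 and 346 CPM in WT libraries. No libraries overlapped, and its log2 fold change was 0.36 ± 0.02 (edgeR adjusted p = 3.3e-16). Mafg, a small MAF partner of NFE2L1, was higher by 0.24 ± 0.02, and Fbxw7, a ubiquitin ligase adaptor that targets NFE2L1, fell with a log2 fold change of -0.37 ± 0.04 (edgeR adjusted p = 7.7e-10 and 2.5e-09). With GC and length trends removed, the log2 fold change of Mafg was 0.06. RNA levels do not show how much active NFE2L1 protein was present.

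Among other proteasome-associated genes, 2 of 11 were higher, 1 lower and 8 did not pass, beside 29.0% higher and 32.1% lower over all tested genes. Usp14, a deubiquitinase on the regulatory particle, and Ube3c, a ubiquitin ligase of the proteasome, were higher by 0.14 ± 0.03 and 0.07 ± 0.02, and Zfand5, which binds the proteasome, was lower at -0.08 ± 0.03 (edgeR adjusted p = 0.0002, 0.0093 and 0.012). With GC and length trends removed, Usp14 was at 0.22 and Ube3c at 0.16. Zfand5 lost its call without BAP1 KO replicate 2, and its log2 fold change was 0.01 with library means removed beside GC and length trends.

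Of 11 genes of the p97 unfoldase and the shuttle proteins that bring substrates, 6 were higher (54.5%) and 2 lower (18.2%), and 3 did not pass, beside 29.0% higher and 32.1% lower over all tested genes. The median log2 fold change was 0.059. Faf1, a cofactor of p97, was higher by 0.20 ± 0.03, and the p97 cofactor Ubxn7 was lower at -0.15 ± 0.03 (edgeR adjusted p = 1e-06 and 6.1e-05). Of 6 genes of ubiquitin and its activating enzymes, a separate list, 2 were higher (33.3%), 1 lower (16.7%) and 3 did not pass, beside the same background. Uba1, the main ubiquitin-activating enzyme, was higher by 0.11 ± 0.02 (edgeR adjusted p = 2.1e-05). Ubb, a ubiquitin gene, was higher by 0.07 ± 0.03 (edgeR adjusted p = 0.018), but lost its call under 5 alternatives and was at -0.01 with GC and length trends removed.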

How the data were processed

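Polyadenylated RNA of 8 libraries was analysed by genotype. Replicate numbers are not in the labels: they were assigned here by sample order and only name libraries. Per the labels' protocols, 0.5 µg of RNA went into TruSeq v2 libraries, a kit that does not mark strand, and 50 bp single reads were taken. The submitters' processing notes name GSNAP and GRCm38 (version, annotation and strand setting: not given in the sources used here). In the deposited files a count is the number of reads uniquely aligning to a gene model, per the file headers, and the RPKM are the authors' size-factor-adjusted values (nRPKM), per the file headers. The labels name no batch. The ratio of counts to RPKM was constant per gene after 1 factor per library, so only counts were tested, and RPKM served for levels per length.

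Identifiers were named from RefSeq on GRCm38.p6. Counts were tested in edgeR 4.0.16 (R 4.3.3) by the robust quasi-likelihood F test with TMM factors, filterByExpr, Benjamini-Hochberg adjustment over all 16929 tested genes with calls at an adjusted p under 0.05. A positive log2 fold change means higher in BAP1 KO, and its standard error was taken from the F value. On counts simulated for this comparison over 16770 genes, the test recovered 28.6% of the genes given a 1.1-fold change, and 67.3%, 91.5% and 96.0% of those given changes of 1.25, 1.5 and 2-fold. Only 200 genes were changed there, while 61.1% of the tested genes were called in the data. The adjustment was therefore stricter in the simulation, and these shares do not give the recovery for members. A member that did not pass may still differ by the size seen here. Alternatives were RLE, upper quartile and no factors, other filters, DESeq2 1.42.0, limma-voom (3.58.1), removal of GC and length trends by mgcv, and each library left out. The first form of the GC and length correction also removed library means, which changed the scale. After this was seen, the correction was centred so that it kept the TMM scale. This centred form is the one meant by GC and length trends removed, and the first form was kept as an added alternative.

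Shared stretches are exact 50-base words of protein-coding GENCODE vM21 transcripts. Members and lists were chosen with earlier results of these data known. Every member is named. Values per library are given for Bap1, Psmb5, Psmb6, Psmb7, Psmd4 and Psmd14 and for up to 2 called members per direction and role with the largest change. The other lists name up to 3 genes with the smallest adjusted p, apart from the immunoproteasome, and 2 genes that this would name are not reported here. Psme2b matched the naming rule and was placed in a class of its own after the files were read. Paaf1 was not matched to an identifier. Libraries held 67.1 to 84.9 M counts.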

Additional observations from a re-analysis of the deposited data

Results flagged for a closer look

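In 6 of 92 groups of 4 values, 1 library stood apart from the other 3 by Dixon's 95% limit, and chance flags about 1 in 20 groups. In BAP1 KO replicate 2, Psma1 stood at 104 CPM, against 101 to 101 CPM in the others, and Psma6 at 134 CPM, against 129 to 130 CPM. Psmc5 in BAP1 KO replicate 1 stood at 122 CPM, against 115 to 116 CPM. The low count gene Psma8 in BAP1 KO replicate 4 stood at 0.552 CPM, against 0.780 to 0.822 CPM. In WT, Psmd8 in replicate 1 stood at 364 CPM, against 379.9 to 382 CPM, and Psme3ip1 in replicate 4 at 41.6 CPM, against 43.3 to 43.4 CPM.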

How the results depend on the processing

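Of the 16 higher members, 10 kept their call in all 17 alternatives: Psmb4, Psmc3, Psmc4, Psmd2, Psmd4, Psmd5, Psmd10, Psmd11, Psmd13 and Psmg1. Of the 5 lower members, 4 kept it in the 16 alternatives other than the one with library means removed (Psma1, Psmd9, Psme2b and Psmg2). No lower member kept its call in all 17. With GC and length trends removed, 26 members, 5 ATPases and 5 lid subunits were higher, with medians of 0.112 for ATPases and 0.062 for the lid. With library means removed as well, 35 members, 11 core subunits, 6 ATPases and 8 lid subunits were higher, 1 member and 0 core subunits were lower, and the core, ATPase and lid medians were 0.126, 0.185 and 0.135. The cause of the difference from the uncorrected fit was not tested. By construction, the form with library means removed also shifts the median of all genes, to 0.072. Higher ATPases numbered 5 with RLE factors and 5 with DESeq2, and higher core subunits 3 with library totals alone.

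Without 1 library, the counts ran from 4650 to 4883 higher and 5172 to 5370 lower for all genes, 13 to 16 and 4 to 5 for members. Higher subunits ran from 2 to 5 in the core, 2 to 3 among ATPases and 2 to 3 in the lid. Reversed were Psma1 (0.03), Zfand5 (0.01), Ngly1 (0.05), Nfe2l2 (0.04) and Mrc1 (0.01) with library means removed, and Psmb10 (-0.01) and Ubb (-0.01) with GC and length trends alone. No paired analysis was possible because the labels carry no replicate numbers, and those used here were assigned only to name libraries. Depth limits Psma8 and Psmb11, with at most 91 and 3 counts in a library.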
